A study of Arabidopsis thaliana with 12 samples.

Results

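In main inflorescence stems of Arabidopsis thaliana, 40 genes of 18428 tested had levels in the 3 libraries labelled fer that stood far above those in the 9 other libraries. They included the vacuolar invertase gene ATBETAFRUCT4, the galactinol synthase gene GolS1, the nicotianamine synthase gene NAS4, jasmonate-linked genes such as JMT, CLH1 and NATA1, and 4 glutaredoxin genes. A gene was a member where its fer mean of log2(FPKM + 1) exceeded the mean of each other genotype by 2 or more and every fer library lay above the other 9. FPKM is a count of mapped fragments relative to the length of the transcript and the size of the library. Chloroplast-encoded genes, 10 seed storage genes and AT1G70830 were left out. Since these values chose the members, levels in the fer libraries are a description here and carry no test for any member. Of the tested genes, 0.217% met the rule, 0.282% met it before the named exclusions, and 12.9% had all 3 fer libraries above the other 9 with no margin.

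The groups were libraries labelled fer, from fer4 plants with a mutation in the receptor kinase gene FERONIA (FER), libraries of the ccr1-3/fer4 double mutant (ccrfer), libraries of ccr1-3 (ccr), which carries a mutated CCR1, an enzyme gene of lignin synthesis, and libraries of wild-type Col-0 (WT). All plants were 2 months old, and each group had 3 biological replicates. In ccrfer replicates 2 and 3 the genotype entry carries another fer allele number than in replicate 1, and the titles were used for grouping. The study asked to what degree the genes raised in ccr1-3 depend on FERONIA.

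FER itself went against the label fer. It was at 85.1, 83.1 and 84.0 FPKM in the libraries labelled fer, at 0.894, 0.159 and 1.49 FPKM in ccrfer, at 100.4, 97.7 and 96.5 FPKM in ccr, and at 85.9, 83.5 and 83.0 FPKM in WT. Each direction given for these 3 libraries is therefore one of libraries labelled fer, and whether they lack FERONIA function was not tested. CCR1 transcript was at 353.9, 300.6 and 302.4 FPKM in fer, 207.5, 231.0 and 179.1 in ccrfer, 220.0, 189.2 and 187.6 in ccr, and 255.6, 230.9 and 222.1 in WT, so its level does not check the ccr labels. In the 12 libraries 56884740 to 227159338 reads were reported per library, 91.4% to 94.2% of the trimmed reads mapped, and 6064 to 9582 genes were listed at 0. The most zeros were in ccrfer replicate 3, where 14 of the 40 members were at 0. The short transcript AT2G01021 lay between 1429630 and 15147300 FPKM in the fer libraries and was at 6128100, 113705 and 45932600 FPKM in ccrfer. It was at 42536.3 to 410312 FPKM in ccr and 182868 to 332845 FPKM in WT. The summed level of the 10 seed storage genes was 178.2 to 196.9 FPKM in fer, 0 to 1.01 in ccrfer, 1.36 to 2.65 in ccr and 0 to 0.171 in WT, and 26 further seed maturation genes summed to 24.8 to 36.0 FPKM in fer, 9.96 to 19.1 in ccrfer, 10.1 to 13.3 in ccr and 5.33 to 8.20 in WT. Of 10 root markers, 6 were at 0 in all 12 libraries, and the list summed to 0.415 to 1.44 FPKM in fer and at most 0.217 FPKM elsewhere. Much of the fer sum was 1 gene of this list, IRT1, at 0.315, 1.44 and 0 FPKM in fer and at most 0.124 FPKM elsewhere. Summed FPKM of the chloroplast-encoded genes was 203104 to 431631 in fer, 155175 to 331296 in ccrfer, 92683 to 121650 in ccr and 115291 to 202210 in WT. Among these genes ATCG00490 had a mean of 24084.3 FPKM in fer and was listed at 0 in ccrfer, ccr and WT. ATCG00270 and ATCG00280 were listed at 0 in WT and ccr, and ATCG00340 and ATCG00350 in ccr. Where such zeros are failed estimates, the sums that hold them are too low. The secondary wall cellulose synthase genes IRX1, IRX3 and CESA4, which mark lignifying stem tissue, were at 31.8 to 52.3 FPKM in fer, 83.8 to 153.1 in ccrfer and 50 to 90.3 in ccr, against 0.84 to 2.67 FPKM in WT, so the WT libraries nearly lacked them. The part of seed RNA, of AT2G01021 and of the low secondary wall genes of WT in the results below was not tested, and in whole stems fewer cells of a type and less RNA per cell cannot be told apart.

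Several of the members belong to known systems. Plants short of iron raise genes for its uptake and movement, and nicotianamine, the product of the NAS enzymes, chelates iron and other metals for transport within the plant. Jasmonate is a wound and defence hormone that raises genes for protease inhibitors, acetylornithine synthesis and its own methylation. Vacuolar invertases split sucrose in the vacuole, which the vacuolar proton ATPase acidifies, and galactinol synthase makes the donor for raffinose sugars, which accumulate under heat, cold and drought.

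AT1G47395 and AT1G47400 are immediate neighbours on chromosome 1 and had margins of 3.31 and 3.22, behind RR3 and AT4G15660 alone. The reference annotation gives both as unknown proteins, and both were entered in the list of iron deficiency genes used here. The 250 bases upstream of their annotated starts are shown because this neighbouring pair was high in the same libraries. The sequences are from the RefSeq genome of build TAIR10.1, plus strand, at chr1:17382748-17382997 and chr1:17385457-17385706, and capitals mark the 7 stretches of 10 or more bases that are identical in the alignment of the 2 windows.
AT1G47395: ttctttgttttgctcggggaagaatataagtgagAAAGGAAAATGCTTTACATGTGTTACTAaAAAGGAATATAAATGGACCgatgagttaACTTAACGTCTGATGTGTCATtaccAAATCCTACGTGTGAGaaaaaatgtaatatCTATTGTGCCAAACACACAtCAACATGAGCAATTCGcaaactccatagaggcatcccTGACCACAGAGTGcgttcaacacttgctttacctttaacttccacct
AT1G47400: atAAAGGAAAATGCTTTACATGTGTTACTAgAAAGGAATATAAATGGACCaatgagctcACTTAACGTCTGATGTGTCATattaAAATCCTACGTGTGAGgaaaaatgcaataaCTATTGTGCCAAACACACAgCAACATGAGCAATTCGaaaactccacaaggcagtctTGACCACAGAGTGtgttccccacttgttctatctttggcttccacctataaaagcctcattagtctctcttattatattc
Of 216 aligned positions, 190 were identical (88.0%), and the longest identical stretch had 28 bases. The spliced transcripts were 69.2% identical over 695 aligned positions, with at most 59 identical bases in a row, fewer than the read length of 75 bp. ANNAT4 and ANNAT3, a pair of annexin genes on chromosome 2, were the other members that lie next to each other.

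The members were spread unevenly in level and margin. The fer mean was 3.88 to 6612 FPKM with a median of 37.4, and 10 members had 100 FPKM or more while 7 were below 10. The margin over the highest other genotype was 2.01 to 12.69 on the log2(FPKM + 1) scale with a median of 2.33, and 24 members were below 2.5. In FPKM, the fer mean was 4.16 to 136 times the highest other mean, with a median of 6.14 over the 39 members for which this ratio can be given. The fer libraries agreed closely for most members, with a coefficient of variation of 1.5% to 52.4% and a median of 11%. Among the fer libraries, replicate 1 was highest for 11 members, replicate 2 for 14 and replicate 3 for 15. The rule itself required each fer library to lie above the other 9, so no member could rest on 1 fer library. After fer, the next highest mean was in ccrfer for 18 members, in ccr for 12 and in WT for 9. The label of genes high only in fer therefore holds for the margin and not for presence: 5 members reached 1 FPKM in fer libraries alone, and 17 were at 1 FPKM or more in all 12 libraries.

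**Figure D1:**
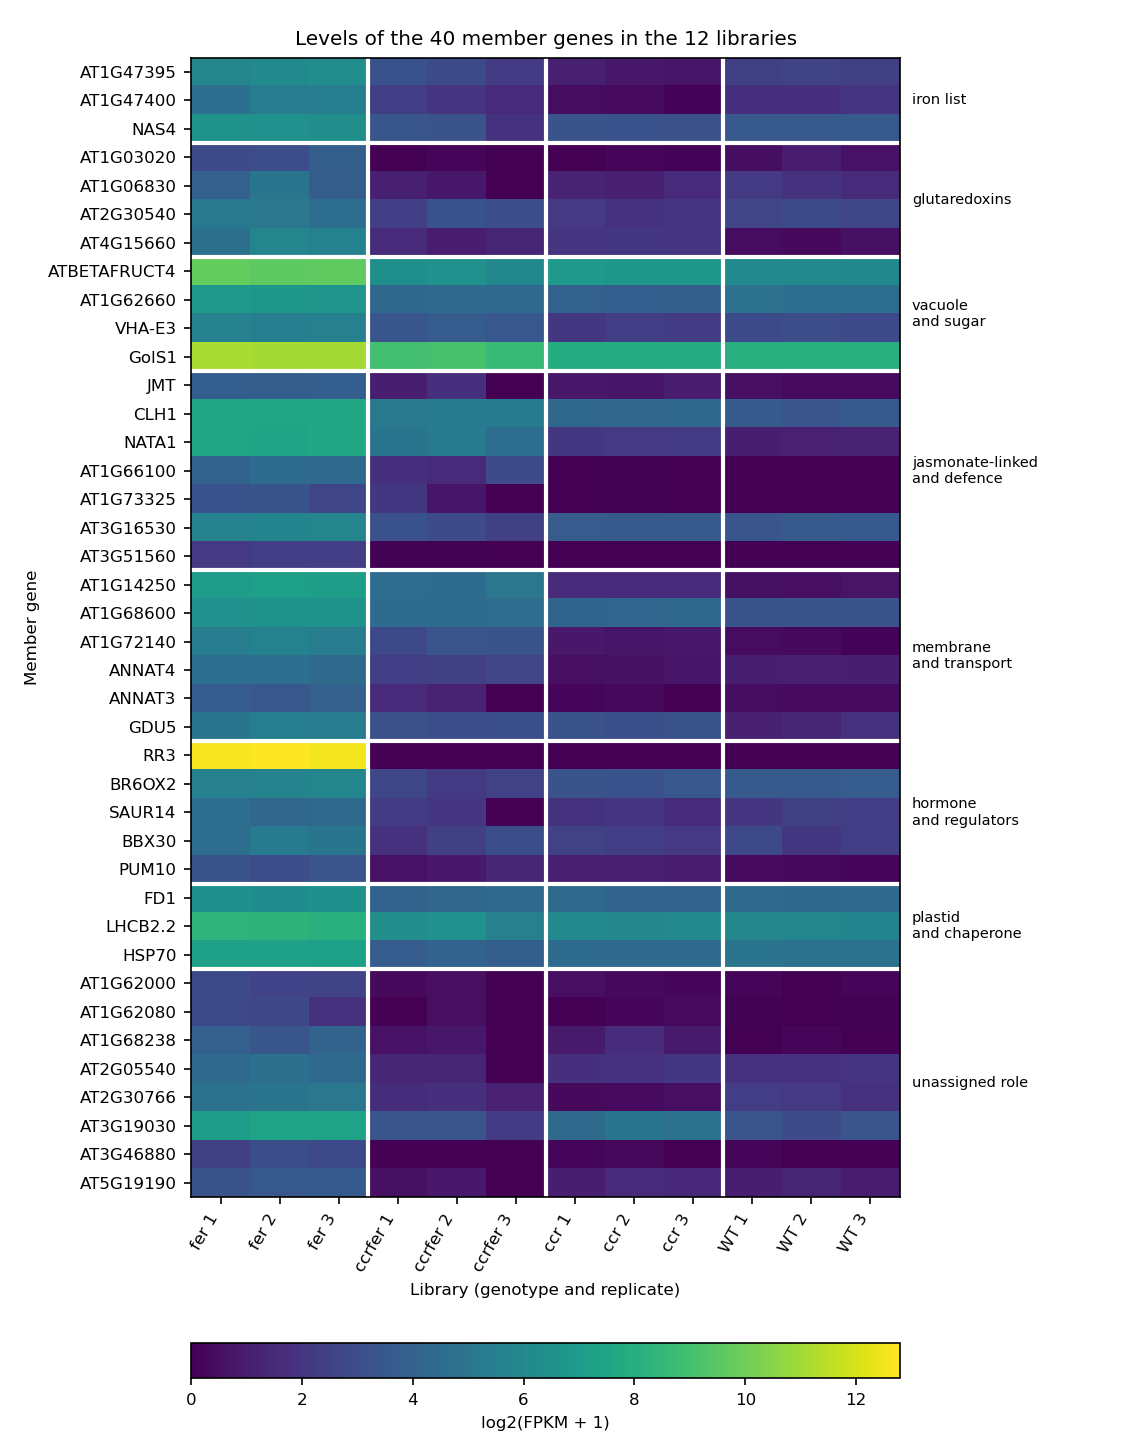
Each row is 1 of the 40 member genes and each column 1 library, grouped by genotype and replicate, with colour for log2(FPKM + 1) and rows grouped by role. The 3 fer columns are brighter than the other 9 in every row, which the choice of members fixes, while GolS1 and ATBETAFRUCT4 are also bright in ccrfer, ccr and WT and RR3 is at 0 outside fer.

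The iron list had 3 members among the 40. AT1G47395 was at 58.0, 65.8 and 76.0 FPKM in fer, 8.42, 6.32 and 3.47 in ccrfer, 1.17, 0.787 and 0.71 in ccr, and 4.37, 5.07 and 4.45 in WT. AT1G47400 was at 24.7, 42.1 and 42.7 FPKM in fer, 4.21, 2.94 and 1.89 in ccrfer, 0.363, 0.306 and 0.0773 in ccr, and 2.35, 2.26 and 2.80 in WT. NAS4, one of the nicotianamine synthases, was at 89.3, 87.7 and 79.1 FPKM in fer, 9.69, 8.55 and 2.68 in ccrfer, 8.73, 8.32 and 7.94 in ccr, and 11.1, 11 and 11.2 in WT. In all 3 genes the fer libraries lay clear of the rest. The neighbouring pair was lowest in ccr, without overlap with WT, and NAS4 was lowest in ccrfer replicate 3.

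The pair fell in ccr relative to WT, with differences of -1.58 (SE 0.224, adjusted p = 0.000122) for AT1G47395 and -1.48 (SE 0.24, adjusted p = 0.000351) for AT1G47400, on the log2(FPKM + 1) scale in limma's fit over all genes, as are the differences below. It rose in ccrfer relative to ccr, by 1.85 (SE 0.224, adjusted p = 9.7e-05) and 1.65 (SE 0.24, adjusted p = 0.000398). Its ccrfer minus WT differences of 0.26 and 0.17 did not pass the test (adjusted p = 0.36 and 0.585), though without ccrfer replicate 3 AT1G47395 did, at 0.56 (adjusted p = 0.00903). NAS4 passed in none of the 3 comparisons, with differences of -0.38 in ccr minus WT, -0.37 in ccrfer minus ccr and -0.75 in ccrfer minus WT (adjusted p = 0.337, 0.421 and 0.0562). Without ccrfer replicate 3 it was lower in ccr than in WT, at -0.38 (adjusted p = 0.000814), and lower in ccrfer than in WT, at -0.26 (adjusted p = 0.0157). Its relatives were looked at after the members were known and did not share 1 pattern. NAS1 was at 144.3, 153.1 and 147.4 FPKM in fer, 39.4, 45.2 and 59.2 in ccrfer, 86.6, 84.9 and 82.3 in ccr, and 14.4, 14.4 and 16.0 in WT. NAS3 was at 2.89, 1.41 and 4.57 FPKM in fer, 2.56, 2.5 and 3.69 in ccrfer, 3.86, 3.92 and 3.79 in ccr, and 9.65, 11.4 and 10.5 in WT, and NAS2 was at no more than 0.237 FPKM in any library. Thus fer was highest for NAS4 and NAS1, while NAS3 was highest in WT.

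Of the 8 genes of the iron list that were no members, 5 passed the low-value filter through libraries other than fer alone, and in fer relative to WT 3 of these rose and 2 fell, where 28.4% of all tested genes rose and 23.2% fell. Their median difference was 0.72, against 0.04 over all genes tested. The 5 genes differ in kind, with the ferritin gene FER1 of iron storage among them. A rise or fall therefore need not mean the same in each, and the count and median give no common direction. BTS, which encodes an E3 ubiquitin ligase that holds back the iron deficiency response, was at 169.6, 163.3 and 163.8 FPKM in fer, 45.4, 46.3 and 50 in ccrfer, 59.6, 58.3 and 57.1 in ccr, and 43.4, 43.0 and 41.5 in WT. BTS rose in fer relative to WT by 1.93 (SE 0.0513, adjusted p = 5.58e-11), with all fer libraries above the other 9. BHLH101, a transcription factor of the same response, had 8.13 ± 1.56 FPKM in fer and 3.65 ± 0.276 in WT (SD, n = 3 each), and 0.143 ± 0.124 in ccrfer against 0.124 ± 0.0731 in ccr. Its fer minus WT difference was 0.96 (adjusted p = 0.000293), but this call was lost with a pseudocount of 0.1 (adjusted p = 0.0629). Its relative bHLH38 was at 1.48, 2.87 and 2.35 FPKM in fer, listed at 0 in ccrfer and ccr, and at 0.0746, 0.167 and 0.372 FPKM in WT. It passed the low-value filter through the fer libraries alone, so it is given as levels with no test. FRO3, a mitochondrial ferric reductase gene, rose by 0.72 (adjusted p = 0.00142), with 24.4 ± 0.669 FPKM in fer and 14.4 ± 0.77 in WT (SD, n = 3 each). FRO2, the ferric reductase of the root surface, fell by 2.03 (adjusted p = 8.64e-08), with 2.79 ± 0.445 FPKM in fer and 14.5 ± 0.471 in WT (SD, n = 3 each). FER1, which encodes the iron store ferritin and is not FERONIA, fell by 0.66 in fer relative to WT (adjusted p = 3.03e-06). FER1 rose by 2.07 in ccr relative to WT (adjusted p = 2.88e-10), with 243.4 ± 14.1 FPKM in ccrfer, 456.9 ± 8.88 in ccr and 107.8 ± 4.22 in WT (SD, n = 3 each). In fer relative to ccr and in fer relative to ccrfer the counts over these genes were also 3 higher and 2 lower of 5, where 20.5% and 18.5% and then 21.3% and 19.3% of all genes were higher and lower, and these comparisons share the fer libraries.

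**Figure D2:**
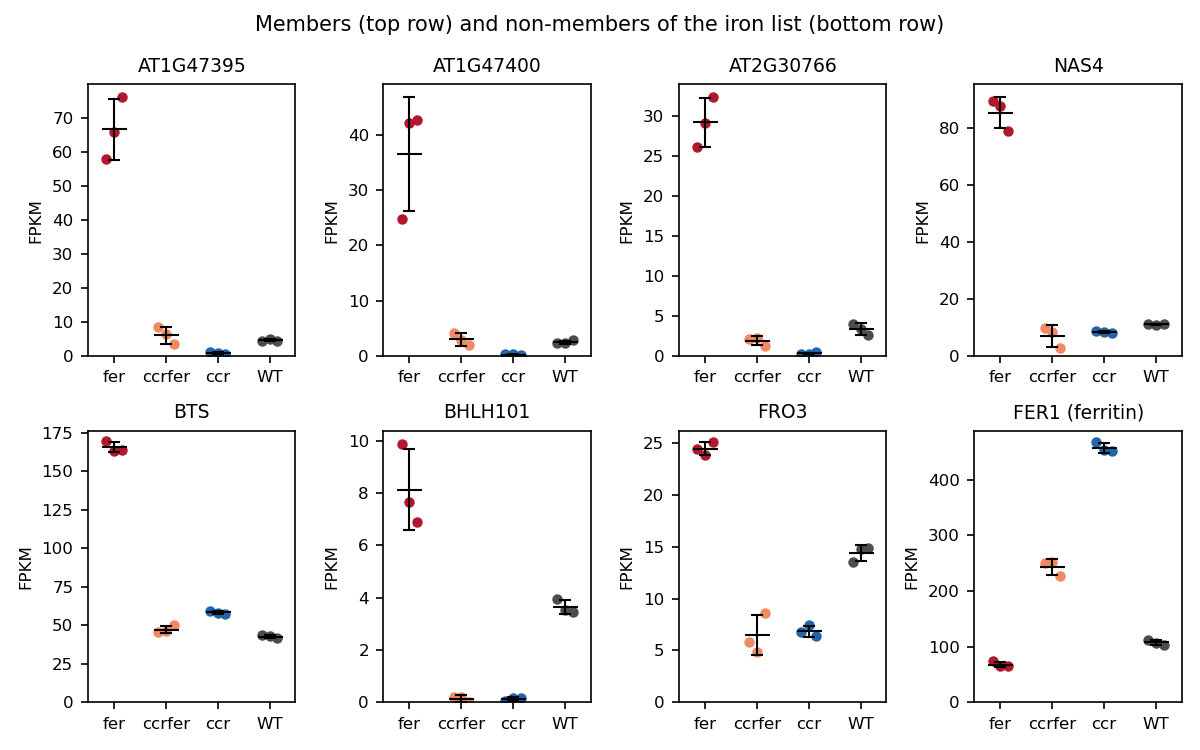
Points are FPKM of single libraries by genotype, with the mean and SD of 3 libraries as bars. The top row holds 4 members, and the bottom row BTS, BHLH101, FRO3 and FER1, tested non-members of the iron list. FRO2, also a tested non-member, is not shown and was lower in fer, at 2.29 to 3.12 FPKM, than in WT, at 13.9 to 14.7 FPKM. The 4 members peak in fer, with AT1G47395, AT1G47400 and AT2G30766 lowest in ccr, while FER1 (ferritin) is highest in ccr at 450.8 to 467.1 FPKM and lowest in fer at 64.8 to 73.5 FPKM.

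The 4 glutaredoxin members encode small redox proteins of the thioredoxin superfamily. AT4G15660 had the second largest margin, with 25.8, 54.7 and 48.1 FPKM in fer, 1.96, 0.973 and 1.49 in ccrfer, 2.90, 3.16 and 2.94 in ccr, and 0.354, 0.264 and 0.491 in WT. It rose in ccr relative to WT by 1.55 (SE 0.242, adjusted p = 0.000257) and in ccrfer relative to WT by 0.84 (adjusted p = 0.0132), where the ccrfer call was lost with quantile normalization and without ccrfer replicate 1 (adjusted p = 0.068 and 0.0502). Its transcript was 79.9% identical to that of AT4G15670, which lies in the same gene cluster and was at 1.02, 0 and 3.5 FPKM in fer and at most 0.246 FPKM elsewhere, and their longest run of identical bases was 63. AT1G06830 varied most among the fer libraries of all members, at 14.1, 30.8 and 12.7 FPKM, against 1.20, 0.771 and 0 in ccrfer, 1.46, 1.15 and 1.91 in ccr, and 3.5, 2.71 and 2.02 in WT. It fell in ccrfer relative to WT by 1.23 (SE 0.342, adjusted p = 0.0106), with replicate 3 listed at 0. AT2G30540 was at 34.5, 32.5 and 23.7 FPKM in fer and at 2.67 to 8.42 FPKM elsewhere, and AT1G03020 at 6.92, 7.07 and 13.9 FPKM in fer and at 0 to 1.02 FPKM elsewhere. AT2G30540 fell in ccr relative to WT by 0.74 (adjusted p = 0.0127) and rose in ccrfer relative to ccr by 0.88 (adjusted p = 0.0104), so the glutaredoxins did not move as 1 group outside the fer libraries.

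Sugar metabolism and the vacuole gave 4 members at high levels. ATBETAFRUCT4 was at 885.5, 792.7 and 814.7 FPKM in fer, 82.8, 88.1 and 62.5 in ccrfer, 115.8, 109.2 and 108.3 in ccr, and 68.7, 66.2 and 61.7 in WT. The related gene AT1G62660, a glycoside hydrolase annotated with beta-fructofuranosidase activity, was at 116.8, 107.2 and 100.9 FPKM in fer, 18.7, 20.8 and 19.8 in ccrfer, 14.5, 13.2 and 13.4 in ccr, and 26.0, 24.9 and 23.5 in WT. The 2 genes stood together in fer and moved in opposite directions elsewhere. In ccr relative to WT, ATBETAFRUCT4 rose by 0.75 (SE 0.106, adjusted p = 0.000112) and AT1G62660 fell by 0.82 (SE 0.073, adjusted p = 2.74e-06). In ccrfer relative to ccr, ATBETAFRUCT4 fell by 0.52 (adjusted p = 0.00411) and AT1G62660 rose by 0.50 (adjusted p = 0.000411). Their transcripts were 80.3% identical, with at most 32 identical bases in a row.

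GolS1 had the highest fer level of the members with a nonzero level elsewhere, at 2298.4, 2135.5 and 2123.1 FPKM in fer, 497.2, 541.0 and 396.4 in ccrfer, 244.9, 231.7 and 230.3 in ccr, and 264.2, 265.9 and 255.9 in WT. It rose in ccrfer relative to ccr by 1.01 (SE 0.0958, adjusted p = 1.28e-05) and relative to WT by 0.85 (adjusted p = 1.51e-05), and the 3 ccrfer libraries lay between the fer libraries and the other 6. VHA-E3, a subunit E isoform of the vacuolar proton ATPase, was at 50.3, 43.3 and 47.2 FPKM in fer, 9.63, 12 and 10.2 in ccrfer, 3.24, 4.10 and 3.65 in ccr, and 6.44, 7.06 and 6.14 in WT. VHA-E3 fell in ccr relative to WT by 0.70 (adjusted p = 0.000256) and rose in ccrfer relative to ccr by 1.32 (adjusted p = 3.7e-06).

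Jasmonate-linked and defence genes gave 7 members. NATA1, which acetylates ornithine in a jasmonate-induced defence, was at 188.7, 175.5 and 192.7 FPKM in fer, 30.6, 36.8 and 23.4 in ccrfer, 3.18, 3.31 and 3.49 in ccr, and 1.07, 1.26 and 1.34 in WT. CLH1, a chlorophyllase gene first found as coronatine-induced, was at 183.6, 191.5 and 193.8 FPKM in fer, 35.0, 39.5 and 37.2 in ccrfer, 19.1, 17.9 and 18.2 in ccr, and 11.3, 9.26 and 11 in WT. In both genes the 4 genotypes formed 4 separate steps from fer down to WT. NATA1 rose in ccr relative to WT by 0.96 (SE 0.131, adjusted p = 9.04e-05) and in ccrfer relative to ccr by 2.83 (SE 0.131, adjusted p = 3.06e-08). CLH1 rose by 0.76 (SE 0.0758, adjusted p = 6.99e-06) and by 0.98 (SE 0.0758, adjusted p = 2.26e-06) in the same comparisons.

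JMT, the methyltransferase that makes methyl jasmonate, was at 13.0, 12.5 and 13.3 FPKM in fer, 1.11, 2.27 and 0 in ccrfer, 0.774, 0.731 and 0.934 in ccr, and 0.433, 0.305 and 0.277 in WT, and passed in none of the 3 comparisons. Without ccrfer replicate 3 it rose in ccrfer by 0.54 relative to ccr and 0.98 relative to WT (adjusted p = 0.0481 and 0.000622). The thionin gene AT1G66100, for a small antimicrobial protein, was at 14.6, 21.3 and 19.9 FPKM in fer and 2.38, 1.88 and 6.96 in ccrfer, against 0, 0.0604 and 0 in ccr and listed at 0 in WT. It rose in ccrfer relative to ccr by 2.06 (SE 0.306, adjusted p = 0.00046) on the log2(FPKM + 1) scale. AT1G73325, a Kunitz protease inhibitor gene, was at 8.35, 8.89 and 5.42 FPKM in fer and 3.27, 0.698 and 0 in ccrfer, and at most 0.0359 FPKM in ccr and WT. Its ccrfer minus ccr difference of 0.94 did not pass (adjusted p = 0.126), the ccrfer libraries being far apart, and it passed at 1.41 without ccrfer replicate 3 (adjusted p = 0.00698). AT3G16530, a lectin gene annotated as induced by chitin fragments, was at 50.5, 54.1 and 55.6 FPKM in fer and at 4.45 to 11.8 FPKM elsewhere, and it fell in ccrfer relative to ccr by 0.74 (adjusted p = 0.00516). AT3G51560, a TIR-NBS-LRR immune receptor gene and the next gene to FER in the reference, was at 3.43, 4.17 and 4.05 FPKM in fer, and at 0 to 0.0452 FPKM in the other 9 libraries.

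Of the jasmonate list, 9 further genes were tested, and all 9 rose in fer relative to WT and in fer relative to ccr, while 7 rose and none fell in fer relative to ccrfer. Of all tested genes, 28.4%, 20.5% and 21.3% rose in these comparisons. The list was chosen with earlier results of these data known. The medians of the 9 genes were 1.94, 1.87 and 0.89, against 0.04, 0.00 and 0.01 over all genes, and quantile normalization left 8 higher in fer relative to ccr. VSP2, a vegetative storage protein gene used as a jasmonate marker, was at 1939.8, 1870.1 and 1906.0 FPKM in fer, 820.8, 843.0 and 745.1 in ccrfer, 125.6, 136.2 and 124.2 in ccr, and 16.1, 15.9 and 16.6 in WT. LOX2, a lipoxygenase gene of jasmonate synthesis, was at 220.8, 211.8 and 214.5 FPKM in fer, 68.7, 70.3 and 71.3 in ccrfer, 6.95, 7.18 and 6.58 in ccr, and 2.32, 2.40 and 2.81 in WT. Both were outside the members because ccrfer was within the margin of 2. VSP1 was at 26.1, 27.6 and 23.7 FPKM in fer and 29.6, 33.9 and 26.8 in ccrfer, and its fer minus ccrfer difference of -0.21 did not pass (adjusted p = 0.213). In ccrfer relative to ccr, where 10.4% of all genes rose and 10.1% fell, 6 of the 10 genes of the list rose, NATA1 among them, and MYC2, a master transcription factor of jasmonate signalling, fell by 0.44 (adjusted p = 0.000875). Of 21 tested immune receptor genes outside the members, none rose and 15 fell in fer relative to WT, with a median of -0.51, beside 28.4% higher and 23.2% lower of all genes. In fer relative to ccrfer 9 of these rose and 5 fell, with a median of 0.15, and in fer relative to ccr 5 rose and 8 fell, with a median of -0.13. Of the same 21 genes, none rose and 20 fell in ccrfer relative to WT, beside 24.9% higher and 22.8% lower of all genes. In ccr relative to WT none rose and 13 fell, beside 24.0% higher and 19.8% lower of all genes. AT3G51560 is not counted here, since the membership rule chose it by its fer level. It passed the low-value filter through the fer libraries alone, and in the comparisons without them it could hardly be called. Most of the 21 genes were thus lower in each comparison with WT.

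**Figure D3:**
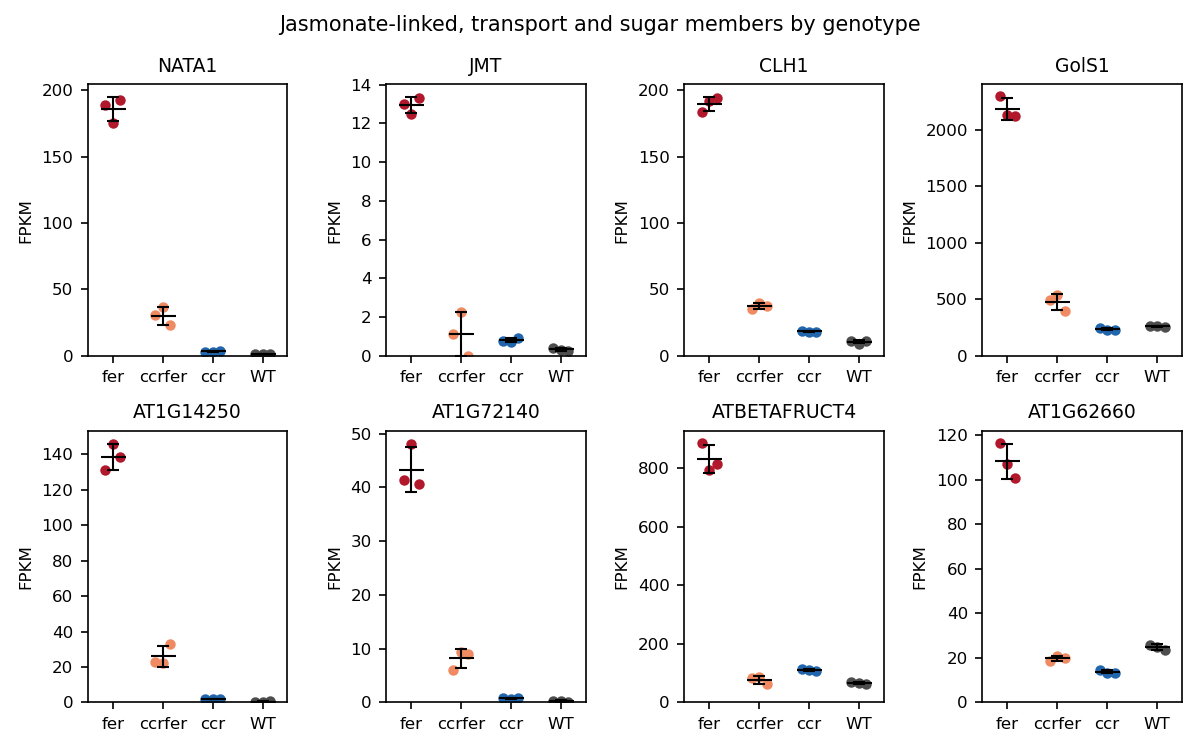
Points are FPKM of single libraries by genotype, with the mean and SD of 3 libraries as bars, for 8 members linked to jasmonate, transport and sugar. NATA1, CLH1, AT1G14250 and AT1G72140 step down from fer to ccrfer to ccr to WT, whereas the related genes ATBETAFRUCT4 and AT1G62660 differ in which of ccr and WT is higher.

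Membrane and transport genes gave 6 members. AT1G14250, a nucleoside phosphatase of the GDA1/CD39 family, was at 130.9, 145.9 and 138.4 FPKM in fer, 22.8, 22.2 and 33.0 in ccrfer, 1.87, 1.86 and 2.01 in ccr, and 0.477, 0.453 and 0.61 in WT. AT1G72140, a major facilitator transporter, was at 41.3, 48.1 and 40.6 FPKM in fer, 6.08, 9.42 and 9.04 in ccrfer, 0.815, 0.671 and 0.781 in ccr, and 0.349, 0.259 and 0.0855 in WT. These genes had, with NATA1, the largest rises of all members in ccrfer relative to ccr, at 3.19 (SE 0.133, adjusted p = 1.25e-08) for AT1G14250 and 2.37 (SE 0.159, adjusted p = 6.56e-07) for AT1G72140. ANNAT4, a calcium-dependent membrane-binding annexin, was at 24.3, 24.8 and 20.8 FPKM in fer, 4.20, 4.31 and 5.44 in ccrfer, 0.439, 0.515 and 0.64 in ccr, and 1.09, 1.17 and 1.11 in WT. It rose in ccrfer relative to ccr by 1.88 (SE 0.129, adjusted p = 8e-07), whereas its neighbour ANNAT3, at 12.1, 10.1 and 14.4 FPKM in fer and 1.89, 1.38 and 0 in ccrfer, differed by 0.76 without passing (adjusted p = 0.119) and by 1.22 without ccrfer replicate 3 (adjusted p = 0.000263). GDU5, a glutamine dumper gene linked to amino acid export, was at 28.9, 44.0 and 42.0 FPKM in fer, 7.89, 7.03 and 7.78 in ccrfer, 8.67, 7.84 and 8.57 in ccr, and 1.21, 1.55 and 2.69 in WT. GDU5 had the largest rise of a member in ccr relative to WT, 1.77 (SE 0.19, adjusted p = 1.28e-05), and its ccrfer minus ccr difference was -0.13 (adjusted p = 0.682). AT1G68600, an aluminium-activated malate transporter family gene, was at 89.0, 89.3 and 91.5 FPKM in fer and at 8.83 to 22.5 FPKM elsewhere.

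Among the hormone and regulator genes, BR6OX2, an oxidase of the last steps of brassinosteroid synthesis, was at 46.4, 52.1 and 58.1 FPKM in fer, 5.52, 3.56 and 4.55 in ccrfer, 8.66, 8.31 and 10 in ccr, and 11.2, 10.9 and 12.1 in WT. It fell in ccrfer relative to ccr by 0.86 (SE 0.132, adjusted p = 0.000566) and relative to WT by 1.18 (SE 0.132, adjusted p = 1.47e-05), so the double mutant was the lowest genotype and fer the highest. The auxin-responsive SAUR14 was at 24.1, 17.4 and 20.1 FPKM in fer and at 0 to 4.37 FPKM elsewhere. The B-box gene BBX30 was at 23.7, 36.8 and 30.7 FPKM in fer and at 2.56 to 7.39 FPKM elsewhere. PUM10, of the Pumilio RNA-binding family, was at 8.70, 7.04 and 9.29 FPKM in fer and at 0.185 to 1.60 FPKM elsewhere. RR3, a type-A response regulator gene of cytokinin signalling, was at 6598.8, 7092.0 and 6146.0 FPKM in fer and listed at 0 in all 9 other libraries. A listing at 0 can be a failed estimate in this table: 18 genes reached 50 FPKM somewhere and were at 0 in all libraries of a genotype, among them the catalase gene CAT3 at 0 in WT and up to 3428.2 FPKM elsewhere, and no fold is given for RR3. Of its type-A relatives, looked at after the members were known, ARR4, RR5, ARR6 and ARR9 were at 14.1 to 88.0 FPKM in fer and 1.67 to 57.4 FPKM elsewhere, each gene with its fer libraries above the other 9. ARR7 had nearly the same range in fer, 25.1 to 33.3 FPKM, as in ccrfer, 25.2 to 33.3 FPKM, ARR15 was highest in ccrfer, and ARR3 was listed at 0 throughout.

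The plastid and chaperone members were genes of photosynthesis and heat response. LHCB2.2, a light-harvesting protein gene of photosystem II, was at 319.2, 309.5 and 278.0 FPKM in fer, 79.1, 89.2 and 46.9 in ccrfer, 68.4, 60.6 and 63.8 in ccr, and 57.7, 55.8 and 53.9 in WT. Its transcript was 93.4% identical to that of LHCB2.1, with a run of 152 identical bases, so the authors' estimates could divide reads between them, and LHCB2.1 was at 650.8, 526.9 and 513.2 FPKM in fer and at 227.6 to 436.2 FPKM elsewhere. The ferredoxin gene FD1 was at 85.5, 74.6 and 85.9 FPKM in fer and at 14.7 to 20.2 FPKM elsewhere. HSP70, a heat-inducible chaperone, was at 159.8, 157.5 and 150.5 FPKM in fer, 12.1, 16.1 and 13.5 in ccrfer, 21.3, 19.4 and 19.4 in ccr, and 29.6, 26.9 and 26.9 in WT. It fell in ccr relative to WT by 0.45 (adjusted p = 0.00146) and in ccrfer relative to ccr by 0.50 (adjusted p = 0.00168), in steps down to the double mutant. The chaperone gene HSP90.1, no member and chosen after its values were seen, was at 107.1, 105.1 and 105.3 FPKM in fer, 19.1, 19.4 and 20.5 in ccrfer, 25.4, 24.0 and 25.5 in ccr, and 30.3, 30.0 and 27.7 in WT.

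For 8 members no role is assigned here. AT2G30766 was at 26.1, 29.1 and 32.3 FPKM in fer, 2.14, 2.29 and 1.27 in ccrfer, 0.271, 0.282 and 0.44 in ccr, and 4.04, 3.40 and 2.59 in WT. It had the largest fall of a member in ccr relative to WT, -1.69 (SE 0.175, adjusted p = 9.17e-06), and rose in ccrfer relative to ccr by 1.11 (SE 0.175, adjusted p = 0.000735). AT3G19030 was at 138.0, 168.0 and 162.0 FPKM in fer, 9.29, 9.36 and 3.61 in ccrfer, 20.8, 30.4 and 26.6 in ccr, and 9.40, 6.65 and 9.30 in WT. It rose in ccr relative to WT by 1.51 (SE 0.27, adjusted p = 0.000721) and fell in ccrfer relative to ccr by 1.75 (SE 0.27, adjusted p = 0.000613). AT3G19030 and AT4G15660 were the only members among the 313 genes of the authors' deposited table, which gave log2 ratios of ccr to WT of 1.62 and 3.02. AT1G68238 was at 14.1, 9.64 and 15.9 FPKM in fer and at 0 to 2.06 FPKM elsewhere, and rose in ccr relative to WT by 1.07 (adjusted p = 0.00614). AT2G05540, of the glycine-rich protein family, was at 19.8, 25.6 and 19.7 FPKM in fer and at 0 to 3.20 FPKM elsewhere. AT2G05540 fell in ccrfer relative to ccr by 0.98 (adjusted p = 0.037), with ccrfer replicate 3 listed at 0, and the call was lost in 9 of the other settings tried. AT5G19190 was at 8.56, 10.5 and 11.4 FPKM in fer and at 0 to 1.91 FPKM elsewhere, and AT3G46880 at 4.42, 7.42 and 6.10 FPKM in fer and at 0 to 0.203 FPKM elsewhere. AT1G62000 and AT1G62080, whose transcripts are 94.6% identical with at most 57 identical bases in a row, were at 5 to 6.40 and 2.49 to 6.01 FPKM in fer and at no more than 0.447 and 0.451 FPKM elsewhere.

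Outside the fer libraries the members did not move as a block. Of the 40 members, 5 reached 1 FPKM in no library outside fer and passed the low-value filter through the fer libraries alone: RR3, AT3G46880, AT1G62000, AT1G62080 and AT3G51560. Near or at 0 in the other libraries, these could hardly be called in the comparisons below. They are counted in the members' shares and medians, which therefore understate how often the other members were called. JMT, ANNAT3, AT1G68238, AT1G03020 and AT1G73325 reached 1 FPKM in only 1 or 2 libraries outside fer. These genes thus also needed the fer libraries to pass the filter, and they are counted like the other members. In ccr relative to WT, 11 of 40 members rose, 8 fell and 21 did not pass, beside 24.0% higher and 19.8% lower of all tested genes. The members' shares were 27.5% higher and 20% lower, close to that background, and their median difference was 0.01 against 0.03 over all genes. In ccrfer relative to ccr, 14 rose and 7 fell, 35.0% and 17.5% of the members, beside 10.4% and 10.1% of all genes, with a median of 0.05 against 0.00. In ccrfer relative to WT, 12 rose and 9 fell, 30.0% and 22.5% of the members, beside 24.9% and 22.8% of all genes, with a median of 0.16 against 0.00. Both comparisons with WT set stems against libraries that nearly lacked IRX1, IRX3 and CESA4. Without ccrfer replicate 3, the library with most zeros, 19 members rose in the last comparison. The ccrfer libraries enter both of the last comparisons, and their counts are not independent of each other. Members whose libraries did not overlap numbered 28 in ccr against WT, 23 in ccrfer against ccr and 22 in ccrfer against WT, beside 69.0%, 38.0% and 55.6% of all tested genes.

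By role, of the membrane and transport members 4 of 6 rose in ccr relative to WT, 4 of 6 in ccrfer relative to ccr and 5 of 6 in ccrfer relative to WT, with medians of 0.70, 1.32 and 1.52. Over all tested genes, 24.0%, 10.4% and 24.9% rose in these comparisons, and 19.8%, 10.1% and 22.8% fell. The jasmonate-linked and defence members had 3 of 7 higher in ccrfer relative to ccr and 1 lower, and the vacuole and sugar members 3 of 4 higher and 1 lower. None of the 3 plastid and chaperone members rose in these comparisons, and HSP70 fell in each, although LHCB2.2 rose in ccrfer relative to ccr without ccrfer replicate 3, by 0.38 (adjusted p = 0.00326). These role groups were drawn up after the values were seen, and their counts are a description.

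**Figure D4:**
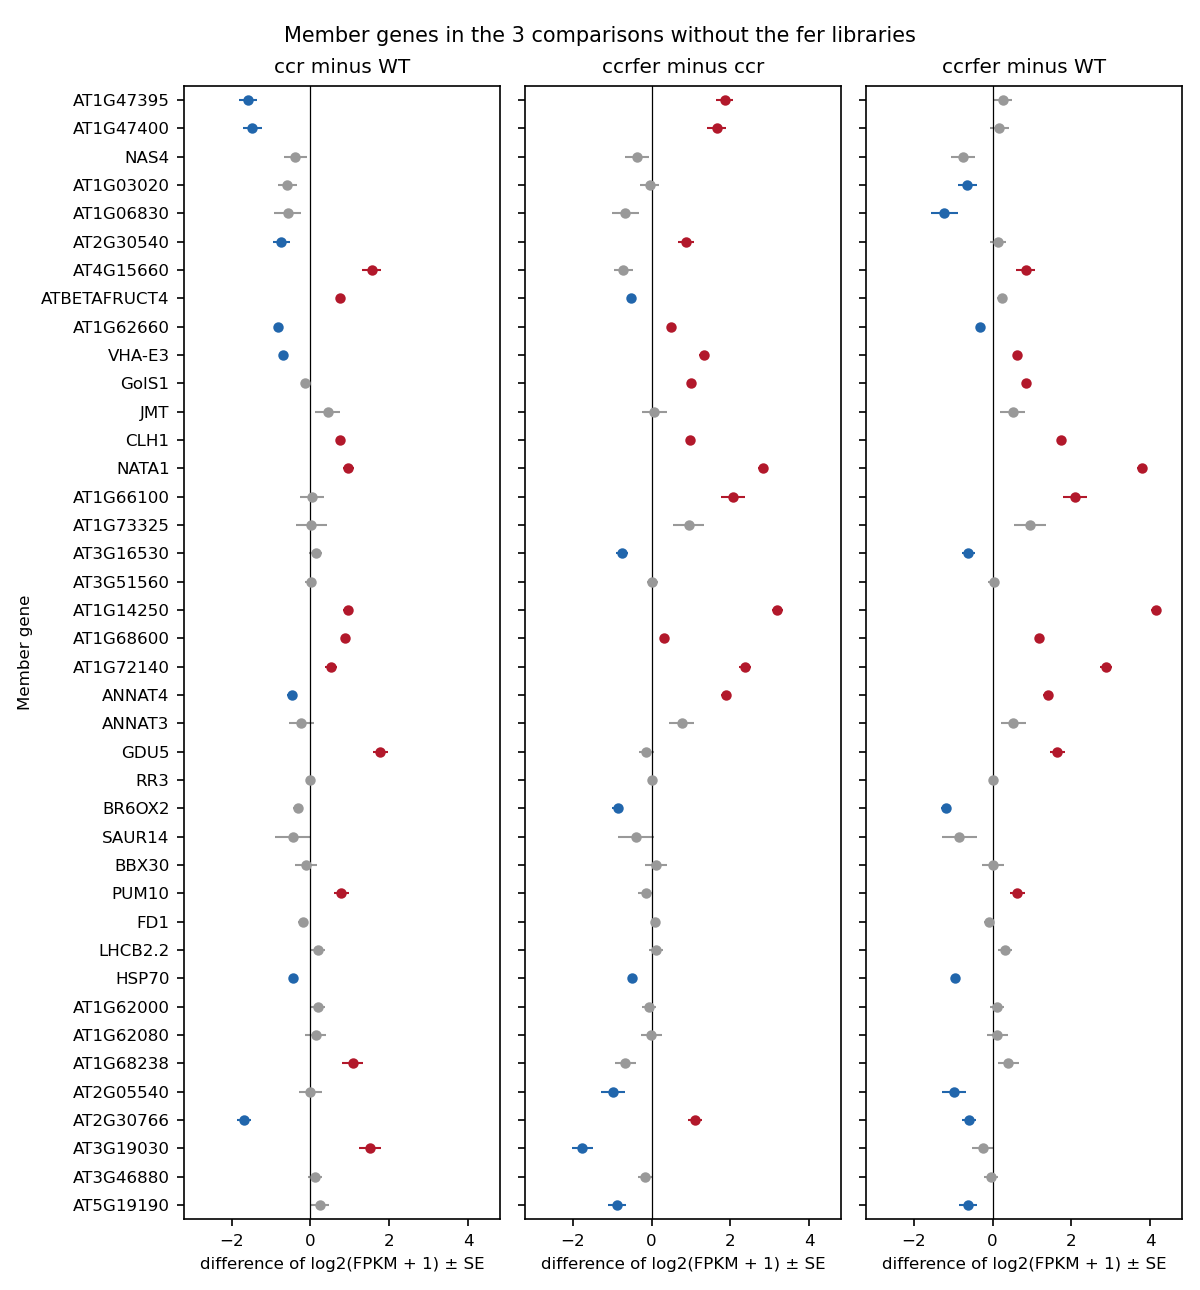
Each point is the difference of a member between 2 genotypes on the log2(FPKM + 1) scale with its SE, in red where limma called it higher, in blue where lower and in grey where it did not pass. AT1G14250 and NATA1 lie farthest right in both ccrfer panels, at 4.14 and 3.79 against WT, while AT1G47395, AT1G47400 and AT2G30766 lie farthest left in the ccr minus WT panel.

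The edge of the group was gradual. The members just inside the margin of 2 were AT1G68600 at 2.01, FD1 at 2.04 and VHA-E3 at 2.05. The genes just outside were AT1G62975, a bHLH gene, at 1.99, the phloem lectin gene PP2-A14 at 1.95 and AT2G21210, a SAUR-like auxin-responsive gene, at 1.95. Of the members, 20 lie on chromosome 1, 9 on chromosome 2, 6 on chromosome 3, 3 on chromosome 4 and 2 on chromosome 5.

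The 250 bases upstream of the annotated starts were searched on both strands for 5 motifs in the 40 members. The same search was made in all 27443 protein-coding RefSeq genes with such a window, whether or not they were tested here. The G-box CACGTG was in 10% of the members' windows and 6.49% of all windows. The heat shock motif GAANNTTC was in 17.5% and 9.55%, and the W-box, as TTGACC or TTGACT, in 27.5% and 28.4%. TGACG was in 5% and 18.6%, and AATATCT in 7.5% and 10%. With 40 windows these shares rest on 2 to 11 genes each, and a match of letters says nothing of binding.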

How the data were processed

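RNA from main inflorescence stems was sequenced in 12 libraries, 3 per genotype, as stranded paired reads of 75 bp. Per the submitters' processing notes and the file headers, reads were aligned with TopHat2 2.1.1 and Bowtie2 2.3.2.0 to TAIR10 with the Araport11 annotation, and the authors deposited FPKM per gene, made with Cufflinks 2.2.1 and Cuffdiff, whose version is not given in the sources used here. Per the file headers, the authors' table of 313 genes holds log2 ratios of ccr to WT and adjusted p-values, and a further table gives read counts per library and the mapped fraction. The number of fragments behind a single gene's FPKM is unknown.

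Values were analysed as log2(FPKM + 1), which understates changes of low genes. Of 27655 genes, the 18428 with FPKM of 1 or more in 3 or more libraries were fitted together over the 4 genotypes with limma 3.58.1 in R 4.3.3, with a mean trend and Benjamini-Hochberg adjustment over all of them, and a call needs an adjusted p under 0.05. The fit was tested on simulated data. For members only ccr minus WT, ccrfer minus ccr and ccrfer minus WT were tested, since the rule used the fer libraries. The fer comparisons of list genes that are no members were added later and were not in the planned design, and leave out genes that passed the filter through the fer libraries alone. The secondary wall genes and the FER1, MYC2 and VSP1 differences were also added after seeing the data.

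Members and lists were chosen with earlier results of these data known. Members were named by the largest margins, the highest fer levels, the largest tested differences, shared families, neighbours and lists, and the others are given with their ranges. Of the table's IDs, 27445 matched the RefSeq table of TAIR10.1, which gave names, and 310 of 312 positions in the authors' deposited table lay inside the RefSeq gene. Upstream windows were aligned with Biopython 1.88. The labels say biological replicates but not whether plants were pooled, so p-values measure the spread between these samples. The alternatives were the pseudocount, the filter, 2 scalings, the margin, the trend, the replicate block and leaving out each library.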

Additional observations from a re-analysis of the deposited data

How the results depend on the processing

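Genes meeting the membership rule numbered 78 with a pseudocount of 0.1, all 40 members included, 272 with a margin of 1 and 4 with a margin of 3. They numbered 36 with a filter at FPKM 5, all of them members, 36 with quantile normalization, 34 of them members, and 37 to 43 when single libraries were left out. Leaving out single libraries gave 10 to 13 members higher and 8 to 11 lower in ccr minus WT, 14 to 18 and 5 to 8 in ccrfer minus ccr, and 11 to 19 and 6 to 10 in ccrfer minus WT, where the 19 arose without ccrfer replicate 3. Replicate numbers did not pair the libraries: over 18 same-numbered pairs the correlation of deviations from the genotype means was -0.129 to 0.191, with a median of 0.016. With the replicate number as a block, the member counts were 11 higher and 8 lower, 14 and 7, and 12 and 10 in the same 3 comparisons, and over all genes 4312 and 3586, 1835 and 1815, and 4541 and 4147. The block gave 1 further call among those printed, NAS4 in ccrfer minus WT (adjusted p = 0.0431).

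Of the single differences, 38 combinations of gene, comparison and setting lost a call, 39 gained one, 2343 kept their side of the threshold, and none changed direction while called. Calls lost most often were AT1G03020 in ccrfer minus WT, in 11 settings, and AT2G05540 in ccrfer minus ccr, in 9. PUM10 in ccr minus WT and in ccrfer minus WT was lost with quantile normalization (adjusted p = 0.066 and 0.168), and the ccrfer call also without WT replicate 3 (adjusted p = 0.0558). AT5G19190 in ccrfer minus ccr was lost without ccr replicate 2 or 3 (adjusted p = 0.067 and 0.0607). AT1G72140 in ccr minus WT was lost in 4 settings, with quantile normalization and without WT replicate 3, ccr replicate 1 or ccr replicate 3 (adjusted p = 0.283, 0.0811, 0.0614 and 0.056). The cause was not tested. Members near 1 FPKM are the least certain, since the fragments behind them are unknown.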

Other observations

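AT1G70830, which met the rule and was left out of the members by name, and the 10 seed storage genes are the excluded nuclear genes. Of the marker lists, the summed level of 19 endosperm and seed coat genes was 160.0 to 171.8 FPKM in fer, 159.5 to 166.1 in ccrfer, 163.9 to 174.9 in ccr and 194.4 to 203.8 in WT. The 13 flower and silique genes summed to 11.6 to 15.2 FPKM in fer, 7.92 to 11 in ccrfer, 8.47 to 10 in ccr and 6.15 to 6.68 in WT, and the 13 pollen and tapetum genes to 3.84 to 4.58, 0.31 to 2.21, 1.71 to 1.79 and 3.28 to 3.82 FPKM in fer, ccrfer, ccr and WT. The 10 embryo regulators summed to 3.96 to 10.8 FPKM in fer, 2.89 to 5.97 in ccrfer, 5.87 to 6.48 in ccr and 8.34 to 9.69 in WT.

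Lists that held none of the 40 members are given over all 3 comparisons of the fer libraries, which share those libraries. Of all tested genes, 28.4% were higher and 23.2% lower in fer relative to WT, 20.5% and 18.5% in fer relative to ccr, and 21.3% and 19.3% in fer relative to ccrfer. Of 8 tested hypoxia genes, 1 rose and 5 fell in fer relative to WT, 1 rose and 7 fell relative to ccr, and none rose and 8 fell relative to ccrfer, with medians of -0.98, -0.99 and -0.82. Of 8 tested genes of salicylic acid output, 1 rose and 4 fell in fer relative to WT, none rose and 8 fell relative to ccr, and 5 rose and none fell relative to ccrfer, with medians of -0.37, -1.26 and 0.50. In ccr relative to WT, 6 of these 8 rose and 1 fell, and in ccrfer relative to ccr none rose and 8 fell. Of 9 tested sulfur deficiency genes, 3 rose and 3 fell in fer relative to WT, 1 rose and 7 fell relative to ccr, and 3 rose and 2 fell relative to ccrfer, with medians of 0.04, -0.65 and 0.22, and in ccr relative to WT 6 rose and none fell.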
